A study of Mus musculus with 6 samples.

Results

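The genes described here encode matricellular proteins and fibronectin. Matricellular proteins are secreted proteins of the extracellular matrix that tune how cells attach and signal rather than bear load. Fibronectin (Fn1) forms fibrils of the matrix and is grouped with them here. The genes are Smoc1, Smoc2, Sparc, Sparcl1, Spp1, Thbs1, Thbs2, Tnc, Postn and Fn1, 10 genes found by symbol among the 19877 genes of the deposited table. The genes were chosen by name, with their measured FPKM differences between knockdown and scrambled libraries already known. For that reason the differences between knockdown and scrambled libraries are given for these genes as a description, with no p-value. The 6 RNA-seq libraries come from mouse ADSCs; the labels give only this abbreviation, which usually stands for adipose-derived stem cells. In 3 libraries Ifit1 was knocked down with a hairpin, and 3 libraries carried a scrambled hairpin. Cells of both groups are labelled wild type, and each of 3 batches holds 1 library of either kind. The sources used here do not give the position in Ifit1 that the hairpin targets, the number of hairpins, or the age and sex of the source animals.

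Matricellular proteins sit between collagen fibres and cell-surface receptors such as integrins, CD44 and CD47. SMOC1, SMOC2, SPARC and SPARCL1 share a calcium-binding domain, and a SMOC protein acts as an antagonist of bone morphogenetic proteins in frog embryos. Osteopontin (Spp1) belongs to another family, encoded by a cluster of genes for acidic, integrin-binding proteins of bone and tooth. Thrombospondins bind CD47, CD36 and growth factors, and thrombospondin 1 activates latent TGF-beta. Tenascin C and periostin accumulate in healing tissue, and fibronectin is the fibril-forming adhesive glycoprotein to which many of the others bind. Stromal cells of fat and of the injured heart secrete many of these proteins.

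Levels are in FPKM, which divides the fragments of a gene by its length and by the depth of the library, so they can be compared between genes. Fragments recovered from the steps of the FPKM values summed to between 32.2 and 40.2 M in knockdown libraries and between 37.1 and 40.6 M in scrambled libraries. The targeted gene Ifit1 stood at 1.76, 1.48 and 1.51 FPKM in knockdown libraries 1, 2 and 3, against 4.90, 3.75 and 4.97 FPKM in scrambled libraries 1, 2 and 3. Of 12 stromal marker genes, 11 reached a mean of 1 FPKM in at least 1 group, among them Thy1, Cd34, Ly6a and Pdgfrb. The exception was Nt5e, with means of 0.206 FPKM in knockdown and 0.234 FPKM in scrambled libraries. Of 8 macrophage markers 2 reached that level (Cd14 and Cd68), and the means of Ptprc, the pan-leukocyte marker CD45, were 0.00175 FPKM in knockdown and 0 FPKM in scrambled libraries. Of 8 endothelial markers 1 reached it (Egfl7). Of 9 pericyte and smooth muscle markers 5 reached it, of which 1 rose (Tagln). Another, Notch3, reached 1 FPKM only in scrambled libraries, so no call is given for it. Its means were 0.644 FPKM in knockdown and 2.96 FPKM in scrambled libraries. Acta2 averaged 491 FPKM in knockdown and 419 FPKM in scrambled libraries, and Tagln 433 and 315 FPKM. Of 8 epithelial and mesothelial markers 1 reached it (Msln, 15.4 FPKM in knockdown and 22.5 FPKM in scrambled libraries). Of the stromal markers, 7 fell and 3 rose (Cd44, Alcam and Itgb1). Their sum ran from 1191 to 1324 FPKM in knockdown and from 1732 to 1907 FPKM in scrambled libraries. Col1a1 made up that gap, with means of 676 FPKM in knockdown and 1220 FPKM in scrambled libraries. The other 11 together ran from 574 to 595 FPKM in knockdown and from 573 to 577 FPKM in scrambled libraries. Itgb1 (316 and 296 FPKM in knockdown and scrambled libraries) and Cd44 (117 and 82.6 FPKM) weighed most in that sum. Ly6a, Thy1, Eng, Pdgfra, Pdgfrb and Cd34 fell, and the median log2 fold change of the tested stromal markers was −0.42. The part of the markers in the values below was not tested. Libraries of a group differed by more than sampling noise, most of all knockdown libraries 1 and 3. Gene positions below are those of GENCODE M21 on GRCm38. In bulk RNA, fewer cells of a type and less RNA per cell cannot be told apart.

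Of the 10 genes, 8 passed the filter on low values (at least 1 FPKM in at least 3 of the 6 libraries), and Smoc1 and Sparcl1 did not. Smoc2 and Thbs1 were higher in all 3 knockdown libraries than in any scrambled library. Sparc, Fn1, Spp1, Postn, Thbs2 and Tnc were lower in all 3 knockdown libraries than in any scrambled library. The sizes ran from a 5.90-fold higher mean for Smoc2 to a mean for Postn that was 0.602 times the scrambled one. Among all 10311 tested genes the groups did not overlap for 61.1%, with knockdown above for 23.8% and below for 37.3%. Since this contrast was known when the genes were put together, nothing is read from their number.

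**Figure D1:**
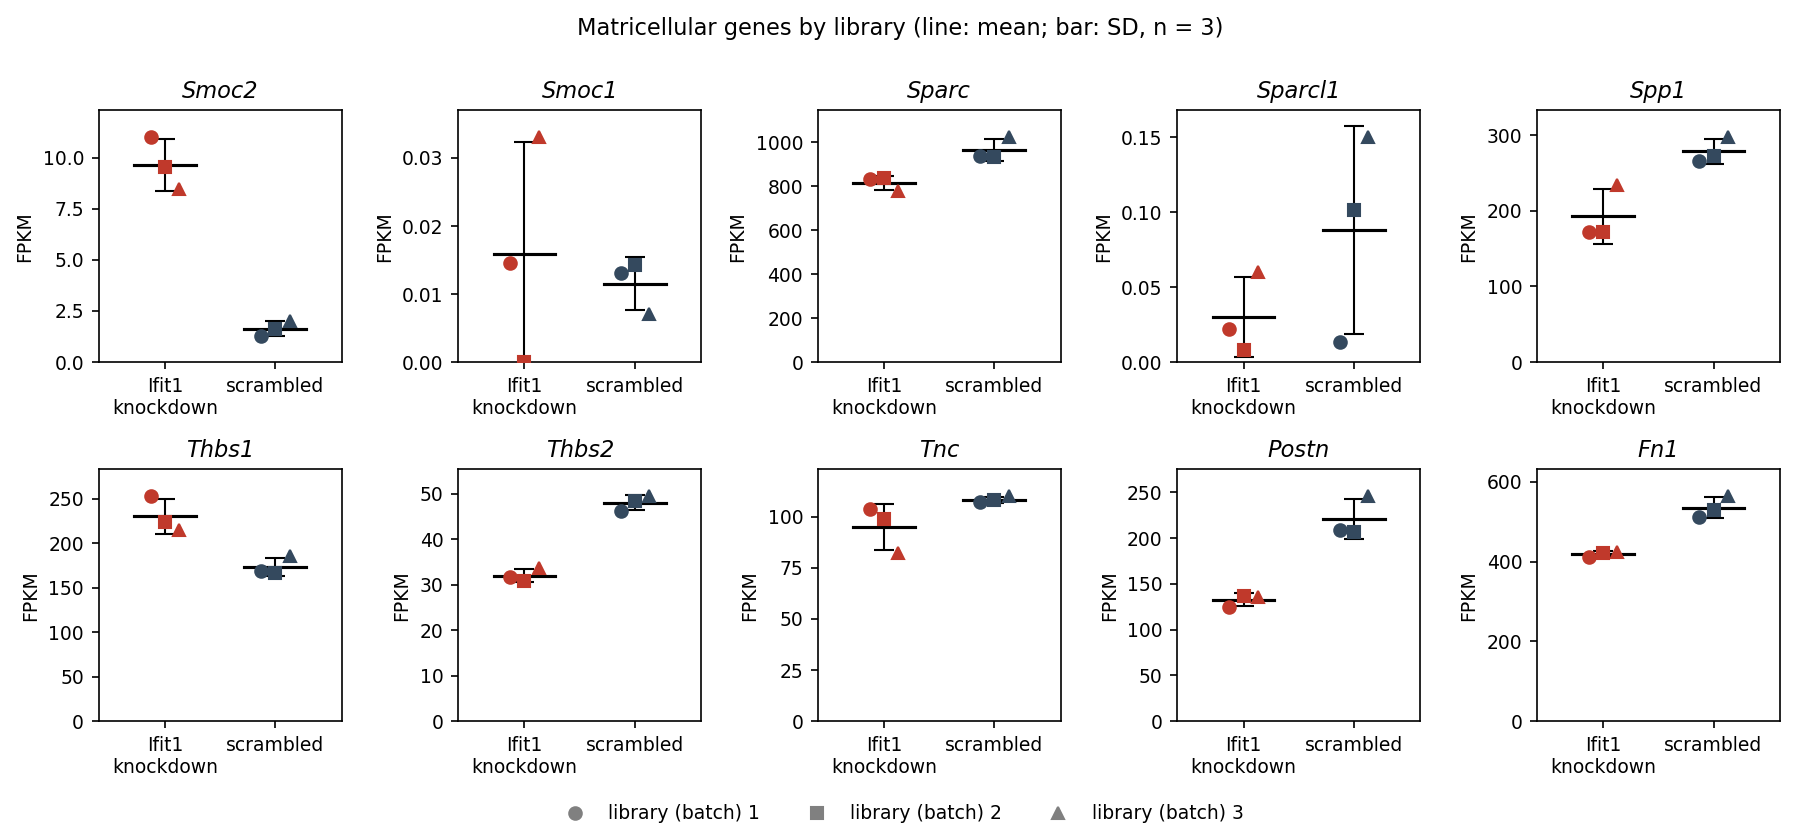
FPKM of the 10 matricellular genes in each library, Ifit1 knockdown (red) left of scrambled (dark), with the mean as a line and the SD as a bar (n = 3). Each panel has its own axis starting at 0. The groups do not overlap for 8 genes, and Smoc1 and Sparcl1 lie at or below 0.150 FPKM in every library.

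Smoc2 (chromosome 17, 14279506 to 14404790, plus strand), a secreted SPARC relative found in basement membranes, had the largest difference of the 10. Its level was 11.0, 9.52 and 8.46 FPKM in knockdown libraries 1, 2 and 3, against 1.28, 1.62 and 2.01 FPKM in scrambled libraries 1, 2 and 3. The lowest knockdown library was far above the highest scrambled one. The means were 9.66 ± 1.27 FPKM in knockdown and 1.64 ± 0.366 FPKM in scrambled libraries (SD, n = 3 each), a log2 difference of 2.26 ± 0.13 (SE) on the log2(FPKM + 0.5) scale. These values rest on 1162, 887 and 983 fragments in knockdown libraries and on 150, 174 and 219 fragments in scrambled libraries, so counting error alone was at most 8.16% of a value. By mean level Smoc2 was the gene of rank 5380 in knockdown and of rank 9666 in scrambled libraries, among the 19877 listed genes. Its log2 difference was above that of 99.98% of the tested genes.

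Its closest relative, Smoc1 (chromosome 12, 81026808 to 81186414, plus strand), was near the limit of detection in both groups. Smoc1 fragments numbered 2, 0 and 5 in knockdown libraries and 2, 2 and 1 in scrambled libraries, or 7 and 5 in all. Per 1 M fragments this is 0.0643 in knockdown (exact Poisson 95% interval 0.0258 to 0.132) and 0.0434 in scrambled libraries (0.0141 to 0.101). The intervals cover counting error only and overlap, and a difference in Smoc1 was not detectable at this depth. Smoc2 thus supplied nearly all SMOC transcripts in both groups.

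Sparc (chromosome 11, 55394500 to 55423183, minus strand), which encodes the collagen-binding glycoprotein osteonectin, was the most abundant of the genes per length in both groups. It was at 829.9, 838 and 779 FPKM in knockdown libraries 1, 2 and 3, against 936, 932 and 1022 FPKM in scrambled libraries 1, 2 and 3. Knockdown libraries were lower by a small amount, and knockdown library 3 was the lowest of the 6. The means were 816 ± 31.6 and 963 ± 50.5 FPKM in knockdown and scrambled libraries (SD, n = 3 each), with a log2 difference of −0.24 ± 0.04 (SE). Sparc ranked 64 of all listed genes in knockdown and 42 in scrambled libraries. The Smoc2 level per Sparc level was 1.32, 1.14 and 1.09% in knockdown libraries 1, 2 and 3, against 0.137, 0.174 and 0.197% in scrambled libraries 1, 2 and 3, so Smoc2 remained a minor transcript beside Sparc.

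Sparcl1 (chromosome 5, 104079111 to 104113733, minus strand), also called hevin and abundant in endothelium and astrocytes, was close to 0. Its fragments numbered 3, 1 and 9 in knockdown libraries 1, 2 and 3 and 2, 14 and 21 in scrambled libraries 1, 2 and 3. The groups overlapped, because scrambled library 1 was as low as the knockdown libraries. Summed over a group this is 0.119 per 1 M fragments in knockdown (exact Poisson 95% interval 0.0635 to 0.204) and 0.321 in scrambled libraries (0.226 to 0.442). These intervals cover counting error only and leave out the spread between libraries, so they do not show a difference between the groups. The summed level of the 8 endothelial markers ran from 3.47 to 3.89 FPKM in knockdown and from 4.97 to 5.47 FPKM in scrambled libraries, nearly all of it Egfl7, while Pecam1 averaged 0.00542 FPKM in knockdown and 0.0180 FPKM in scrambled libraries. Their part in the Sparcl1 values was not tested.

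Spp1 (chromosome 5, 104435118 to 104441050, plus strand) encodes osteopontin, a phosphoprotein that binds integrins and CD44. It stood at 172, 171 and 234 FPKM in knockdown libraries 1, 2 and 3, against 265, 273 and 297 FPKM in scrambled libraries 1, 2 and 3. The groups were apart, and knockdown library 3 was nearest to the scrambled libraries. The means were 192 ± 36.1 FPKM in knockdown and 278 ± 16.6 FPKM in scrambled libraries (SD, n = 3 each), a log2 difference of −0.55 ± 0.11 (SE) that was −0.69 without knockdown library 3. Macrophages also make osteopontin. The summed macrophage markers ran from 5.89 to 5.97 FPKM in knockdown and from 4.54 to 5.61 FPKM in scrambled libraries. Within that list Cd14 averaged 3.90 FPKM in knockdown and 2.96 FPKM in scrambled libraries, Cd68 1.87 and 1.92 FPKM in knockdown and scrambled libraries, and Csf1r 0.0960 FPKM in knockdown and 0.176 FPKM in scrambled libraries. Nearly all of the sum was thus Cd14 and Cd68. Itgam averaged 0.00193 FPKM in knockdown and 0 FPKM in scrambled libraries, and Lyz2 0.0156 and 0.0169 FPKM in knockdown and scrambled libraries. The part of macrophages in the Spp1 values was not tested. On mouse chromosome 5 Spp1 lies 321 kb from Sparcl1, in the cluster that also holds the bone and tooth matrix gene Dmp1. Dmp1 was listed at 0 in all knockdown libraries and averaged 0.00288 FPKM in scrambled libraries.

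The thrombospondin genes Thbs1 (chromosome 2, 118111876 to 118127133, plus strand) and Thbs2 (chromosome 17, 14665500 to 14694235, minus strand) differed in opposite directions. Thbs1 was at 253, 224 and 215 FPKM in knockdown libraries 1, 2 and 3, against 169, 166 and 185 FPKM in scrambled libraries 1, 2 and 3. Thbs2 was at 31.6, 30.8 and 33.6 FPKM in knockdown libraries 1, 2 and 3, against 46.3, 48.4 and 49.5 FPKM in scrambled libraries 1, 2 and 3. Both encode trimeric proteins that restrain blood vessel growth. The mean of Thbs1 was 230.35 ± 19.9 FPKM in knockdown and 173 ± 10.3 FPKM in scrambled libraries (log2 difference 0.41 ± 0.06, SE), and that of Thbs2 was 32.0 ± 1.48 and 48.1 ± 1.59 FPKM in knockdown and scrambled libraries (−0.58 ± 0.04; SD, n = 3 each). The ratio of Thbs1 to Thbs2 was 7.99, 7.28 and 6.38 in knockdown libraries 1, 2 and 3, against 3.64, 3.44 and 3.74 in scrambled libraries 1, 2 and 3. Thbs1 was the more abundant thrombospondin throughout. Thbs3, a pentameric relative outside the set, fell slightly. It averaged 18.6 ± 1.67 FPKM in knockdown and 21.6 ± 0.441 FPKM in scrambled libraries (SD, n = 3 each; log2 fold change −0.21, limma adjusted p = 0.0151). It did not pass when the filter was dropped or when knockdown library 1 or 2 was left out.

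Postn (chromosome 3, 54361109 to 54391037, plus strand), the gene of periostin, which binds collagen and fibronectin and aids collagen cross-linking, had the largest negative log2 difference of the set. It was at 125, 137 and 136 FPKM in knockdown libraries 1, 2 and 3, against 209, 207 and 246 FPKM in scrambled libraries 1, 2 and 3. The lowest scrambled library was well above the highest knockdown library. The means were 133 ± 6.76 FPKM in knockdown and 221 ± 21.6 FPKM in scrambled libraries (SD, n = 3 each), a log2 difference of −0.73 ± 0.07 (SE). The Postn level was 0.494, 0.613 and 0.635 times that of Thbs1 in knockdown libraries 1, 2 and 3, and 1.24, 1.25 and 1.33 times in scrambled libraries 1, 2 and 3, so their order was turned round.

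Tnc (chromosome 4, 63959785 to 64047015, minus strand), the gene of the anti-adhesive glycoprotein tenascin C, differed least among the 8. It was at 104, 98.8 and 82.4 FPKM in knockdown libraries 1, 2 and 3, against 107, 108 and 109.9 FPKM in scrambled libraries 1, 2 and 3. The groups were apart only narrowly, and knockdown library 3 was lowest. The means were 94.9 ± 11.1 FPKM in knockdown and 108 ± 1.51 FPKM in scrambled libraries (SD, n = 3 each). The log2 difference of −0.20 ± 0.07 (SE) was −0.10 without knockdown library 3.

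Fn1 (chromosome 1, 71585520 to 71653200, minus strand), the gene of fibronectin, was the second most abundant of the genes per length and took more fragments than any other of them because its transcript is long. Its level was 411, 422 and 425 FPKM in knockdown libraries 1, 2 and 3, against 512, 528 and 563 FPKM in scrambled libraries 1, 2 and 3. Knockdown libraries lay close together and below all scrambled libraries. The means were 419 ± 7.11 FPKM in knockdown and 534 ± 26.3 FPKM in scrambled libraries (SD, n = 3 each), a log2 difference of −0.35 ± 0.04 (SE). Fn1 alone took 0.352, 0.361 and 0.363% of all fragments in knockdown libraries 1, 2 and 3, against 0.437, 0.451 and 0.481% in scrambled libraries 1, 2 and 3. All 10 genes together took 0.896, 0.890 and 0.870% in knockdown libraries 1, 2 and 3, against 1.01, 1.03 and 1.11% in scrambled libraries 1, 2 and 3. The table gives 1 value per gene, so splice forms of Fn1 and Tnc are not told apart.

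In knockdown libraries the order of mean levels was Sparc, Fn1, Thbs1, Spp1, Postn, Tnc, Thbs2, Smoc2, Sparcl1 and Smoc1. In scrambled libraries it was Sparc, Fn1, Spp1, Postn, Thbs1, Tnc, Thbs2, Smoc2, Sparcl1 and Smoc1. Thbs1 thus stood above Spp1 and Postn in knockdown and below both in scrambled libraries, while 7 of the genes kept their place. Neighbours in the order did not overlap between libraries of a group, except Thbs1 with Spp1 in knockdown libraries and Sparcl1 with Smoc1 in both groups.

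Within batches all 8 genes had the same sign 3 times over. This follows from groups that do not overlap, whichever libraries are paired, and adds nothing to that separation. The log2 difference of Smoc2 was 2.69, 2.24 and 1.84 in batches 1, 2 and 3, and that of Thbs1 was 0.58, 0.43 and 0.21. Both were smallest in batch 3. For Tnc the within-batch values were −0.05, −0.13 and −0.41, and for Sparc −0.17, −0.15 and −0.39, with batch 3 farthest from 0. Spp1 was at −0.62, −0.67 and −0.34, Postn at −0.74, −0.59 and −0.85, Thbs2 at −0.54, −0.65 and −0.55 and Fn1 at −0.32, −0.32 and −0.41. With 1 library of each kind a batch gives no test.

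**Figure D2:**
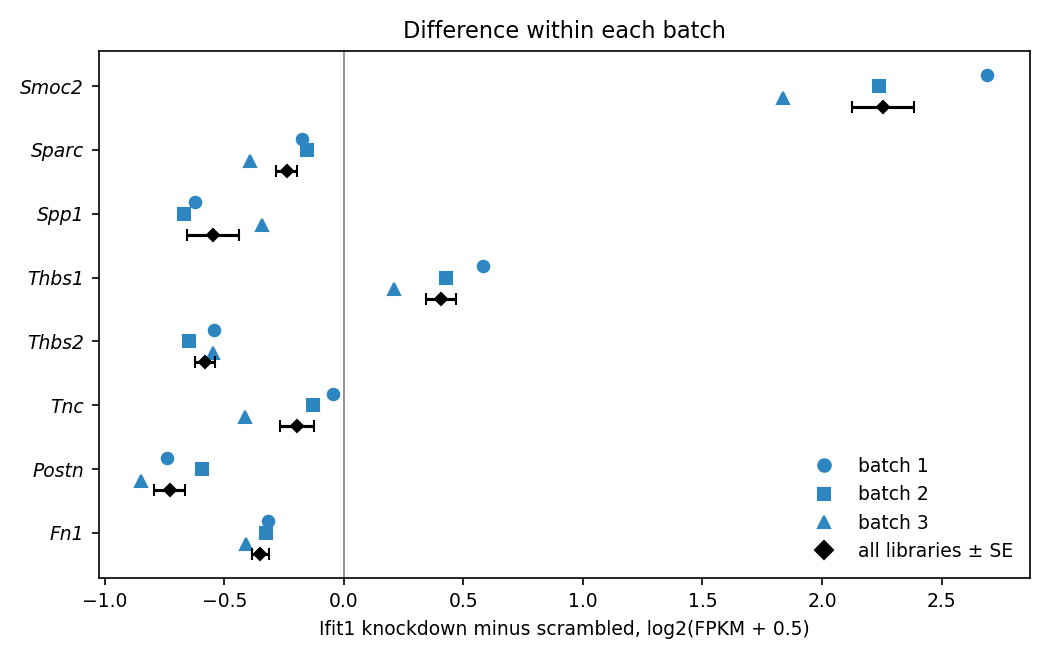
Log2 difference, Ifit1 knockdown minus scrambled, on the log2(FPKM + 0.5) scale for the 8 genes that passed the filter. Blue symbols are the differences within batches 1, 2 and 3, and the black diamond with its bar is the estimate from all 6 libraries with its SE. Smoc2 lies between 1.84 and 2.69. No gene crosses 0, which follows from groups that do not overlap.

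Across all tested genes, 5255 of 10311 (51.0%) passed the threshold of 0.05 on the limma adjusted p, 2046 of them higher (19.8%) and 3209 lower (31.1%) in knockdown. That split moved to 1540 higher and 4035 lower after rescaling to TPM, to 3001 and 2293 under median centring and to 2486 and 2256 under quantile normalization. Among abundant genes (mean of at least 100 FPKM, 631 genes), 53.7% passed as higher and 16.0% as lower, and of the 6 matricellular genes in that class 1 had a positive and 5 had a negative log2 difference. The median log2 difference was −0.29 over the 8 genes, against −0.05 over all tested genes and 0.09 over the abundant ones. These counts describe genes chosen with this contrast known and support nothing further.

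**Figure D3:**
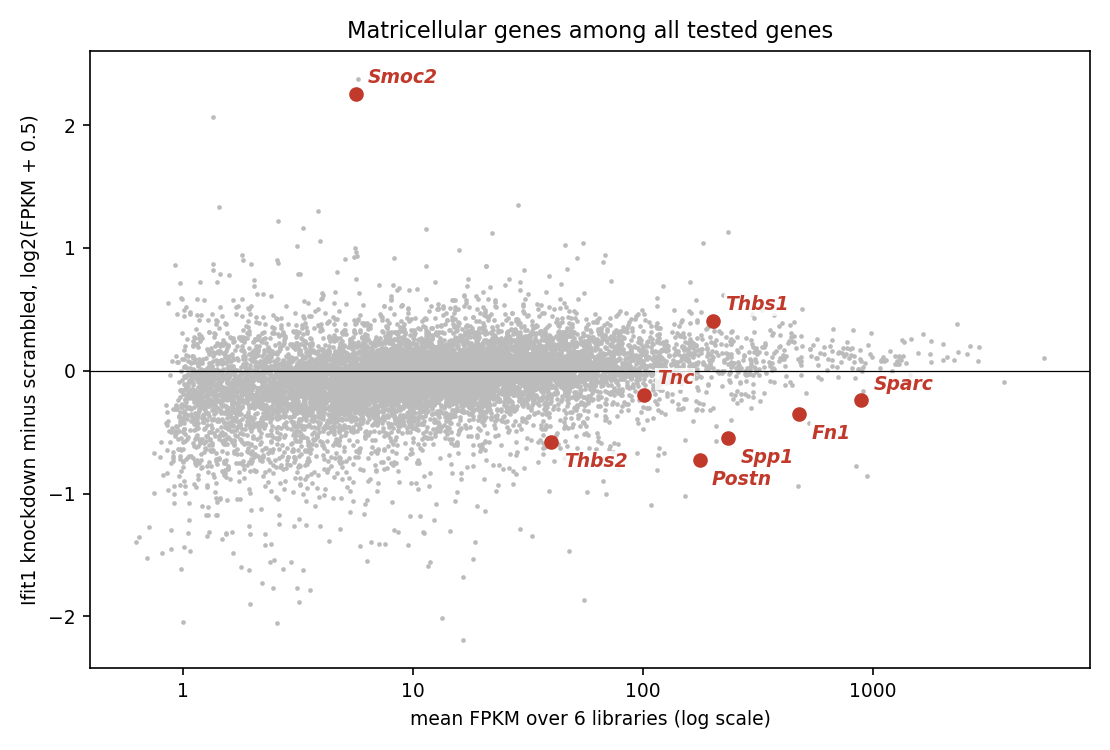
Each grey point is 1 of the 10311 tested genes, with its mean level over 6 libraries (FPKM, log scale) on the x axis and its log2 difference, knockdown minus scrambled, on the y axis. The 8 matricellular genes are red. Smoc2 lies at 2.26, near the top of the range, while Fn1, Spp1 and Postn lie at −0.35, −0.55 and −0.73 among abundant genes.

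The starts of genes that were lower together can be read in the reference. A promoter sequence from RefSeq (GRCm38.p6) was at hand for 5 of the 10 genes, and those of Postn, Spp1 and Thbs2 are shown because these genes had the largest negative differences. Each line gives the 250 bases before a listed start, 5′ to 3′ on the strand of the gene, with matches to the searched motifs in capitals. The windows are chr3:54360857-54361106 (plus strand) for Postn, chr5:104434861-104435110 (plus strand) for Spp1 and chr17:14694263-14694512 (minus strand) for Thbs2.
Postn: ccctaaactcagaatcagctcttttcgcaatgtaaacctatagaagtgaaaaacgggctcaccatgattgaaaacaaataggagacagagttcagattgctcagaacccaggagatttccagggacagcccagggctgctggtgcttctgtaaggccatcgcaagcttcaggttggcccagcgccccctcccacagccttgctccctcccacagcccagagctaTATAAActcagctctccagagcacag
Spp1: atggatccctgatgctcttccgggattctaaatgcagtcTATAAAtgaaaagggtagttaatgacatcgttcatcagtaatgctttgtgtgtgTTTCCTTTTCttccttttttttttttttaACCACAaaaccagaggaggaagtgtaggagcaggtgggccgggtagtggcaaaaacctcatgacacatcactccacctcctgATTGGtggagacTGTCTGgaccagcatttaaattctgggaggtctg
Thbs2: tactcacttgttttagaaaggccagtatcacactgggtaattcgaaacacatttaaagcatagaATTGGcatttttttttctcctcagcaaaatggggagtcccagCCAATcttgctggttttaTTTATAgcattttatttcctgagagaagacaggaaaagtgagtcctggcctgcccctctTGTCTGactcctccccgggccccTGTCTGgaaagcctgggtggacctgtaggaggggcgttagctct

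The table lists another start for Postn and for Spp1, and the windows before those starts (chr3:54359017-54359266 and chr5:104435942-104436191, both plus strand) held 0 of the 7 motifs. The windows printed for Postn and Spp1 are those with matches. The motifs searched, on both strands and with overlaps allowed, were the TATA box (TATAAA), the CCAAT box (CCAAT), RUNX (ACCACA), TEAD (GGAATG), AP-1 (TGANTCA), the interferon-stimulated response element (GAAA, 2 bases of any kind, GAAA) and SMAD (CAGACA). The printed Postn window held a TATA box that began 26 bases before the start and no other of the 7 motifs. The printed Spp1 window held matches to 5 motifs, among them RUNX, a family of bone and cartilage transcription factors, and 1 interferon-stimulated response element. The Thbs2 window held TATA, CCAAT and SMAD matches. The TATA matches began 211 bases before the start in the Spp1 window and 126 in the Thbs2 window, farther out than in Postn. Over all 32851 promoter windows of that length, 12.4% held the TATA box, 33.8% CCAAT, 14.0% RUNX, 12.6% TEAD, 6.75% AP-1, 2.98% the interferon element and 17.1% SMAD. A match describes letters and is no evidence of binding.

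Smoc2 and Thbs2 are neighbours on mouse chromosome 17, 261 kb apart in GENCODE M21 on GRCm38, and they differed in opposite directions. Of the other listed protein-coding genes within 500 kb of Smoc2, Dact2 had a log2 fold change of 0.22 (limma adjusted p = 0.0762) and Afdn, an adherens junction scaffold, one of −0.10 (0.107). Dact2 passed, as higher, under median centring, under quantile normalization and without knockdown or scrambled library 3, and Afdn passed, as lower, when knockdown library 3 was left out or values were rescaled to TPM. Wdr27 was below the filter. Within 500 kb of Spp1, Hsd17b11 (−0.47, limma adjusted p = 8.14e-05) and Pkd2 (−0.26, 0.00406) fell, Nudt9 rose (0.28, 0.000504) and Zfp951 did not pass (0.09, 0.495), except under quantile normalization. The neighbours of either gene thus held values of both signs.

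By Euclidean distance of centred log2 values over the 6 libraries, the tested protein-coding gene most like Smoc2 was Serpinb2, an inhibitor of plasminogen activators (distance 1.11). It was followed by Id1 (1.19), Pcolce2 (1.26), Ccbe1 (1.35) and Dlx2 (1.40). Serpinb2 averaged 10.1 ± 4.26 FPKM in knockdown and 1.48 ± 0.528 FPKM in scrambled libraries (SD, n = 3 each), with a wider spread than Smoc2. All 5 genes were higher in knockdown libraries. For Sparc the nearest genes were Col5a2, a fibrillar collagen chain (distance 0.04), the fibulin Fbln2 (0.05), the kinase gene Fyn (0.06), Ccdc71 (0.07) and Sccpdh (0.07). Col5a2 averaged 159.9 ± 6.10 FPKM in knockdown and 193 ± 11.5 FPKM in scrambled libraries, and Fbln2 295 ± 7.67 and 349.5 ± 11.8 FPKM in knockdown and scrambled libraries (SD, n = 3 each). Both encode matrix proteins. Since these genes were picked for a pattern like that of Smoc2 or Sparc, their direction follows from the choice and no p-value is given. The distances are a description of 6 libraries that differ mainly by group.

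Other matricellular and SPARC-family genes also differed in both directions. Of 31 listed genes 24 were in the table and 15 were tested, of which 5 rose and 8 fell (limma, median log2 fold change −0.21). Over all tested genes 19.8% rose and 31.1% fell, the background for this count and for those of the lists below. In the CCN family, secreted regulators of adhesion and growth factor signalling, Ccn1 and Ccn2 rose. Ccn2 was at 397, 329 and 245 FPKM in knockdown libraries 1, 2 and 3, against 142, 141 and 153 FPKM in scrambled libraries 1, 2 and 3, with the lowest value of its group again in knockdown library 3. Ccn1 averaged 579 ± 46.1 FPKM in knockdown and 407 ± 7.53 FPKM in scrambled libraries (log2 fold change 0.51, limma adjusted p = 0.000119). Ccn4 fell (−0.52, limma adjusted p = 3.38e-05), and Ccn3 stood at 0.02 (0.848). Ccn5 passed the filter only through the scrambled libraries. It was at 0.689, 0.429 and 0.970 FPKM in knockdown libraries 1, 2 and 3. Scrambled libraries 1, 2 and 3 held 1.24, 1.32 and 1.72 FPKM. Its log2 difference (−0.70) is given without a p-value, although it counts among the 8 that fell. Tgfbi, the gene of a TGF-beta-induced adhesion protein related to periostin, fell to 11.9 ± 0.570 FPKM in knockdown libraries, against 26.1 ± 1.71 FPKM in scrambled libraries (−1.10, limma adjusted p = 1.25e-05). Fstl1, a SPARC-family glycoprotein gene, fell by 0.24 (0.000287), and Spock2, Spock3 and Dmp1 were below the filter, with means of at most 0.379 FPKM.

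Collagen genes and genes of collagen processing mostly fell. Of 30 tested genes 20 fell and 3 rose, with a median of −0.31 (5 rose without knockdown library 3). Col3a1 averaged 101 ± 9.41 FPKM in knockdown and 204 ± 9.05 FPKM in scrambled libraries (limma adjusted p = 2.1e-05). Col5a3 (−1.31), Col5a1 (−0.63) and the prolyl hydroxylase subunit gene P4ha2 (−0.59) also fell. SPARC and periostin bind fibrillar collagen, and their genes were lower in the same libraries. Of 21 tested genes for matrix-cutting proteases, their inhibitors and the urokinase receptor, 7 rose and 13 fell (median −0.14). The collagen-cutting protease Ctsk (−0.64) and Adamts4 (−0.77) fell. Plaur, the urokinase receptor, rose by 0.83 and the inhibitor Timp3 by 0.38.

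Integrins and other receptors went both ways. Of 28 listed receptor genes 17 were tested, of which 5 rose and 7 fell (median −0.03). The count of 5 was 3 without knockdown library 1 or scrambled library 2, and 2 without knockdown library 2 or scrambled library 3. Cd44, a receptor for osteopontin and hyaluronan, was at 117 ± 5.49 FPKM in knockdown and 82.6 ± 6.72 FPKM in scrambled libraries (log2 fold change 0.50, limma adjusted p = 0.000243), the opposite direction to Spp1. The laminin-binding integrin chain Itga6 rose by 0.62 (7.53e-05). Lrp1, an endocytic receptor that takes up thrombospondins, fell by 0.37 and Eng, a TGF-beta co-receptor, by 0.58.

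Among signalling genes linked to these proteins, BMP-related genes that passed were mostly higher. Of 13 tested genes 8 rose and 3 fell (median 0.47). Id1 rose by 1.35 and Id3 by 0.72 (199 ± 3.88 FPKM in knockdown and 121 ± 6.30 FPKM in scrambled libraries), both inhibitors of differentiation that BMP signals induce. The secreted antagonist gene Fst rose as well (0.98). Of 18 tested TGF-beta genes 3 rose and 7 fell (median −0.11). That is 55.6% of them, near the 51.0% of all tested genes, so nothing is read from the count. The receptor gene Tgfbr2 fell by 0.88, Ltbp4 by 0.49 and Tgfb1 by 0.27, while the inhibitory Smad7 rose by 0.53. Of 19 tested YAP, TEAD and SRF factors and targets 10 rose and 3 fell (median 0.09), and 6 fell after rescaling to TPM. Among those that rose were Ajuba (0.50), Vgll3 (0.44), Srf (0.47) and Ankrd1 (0.69). The lists were written with an earlier account of these data known.

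**Figure D4:**
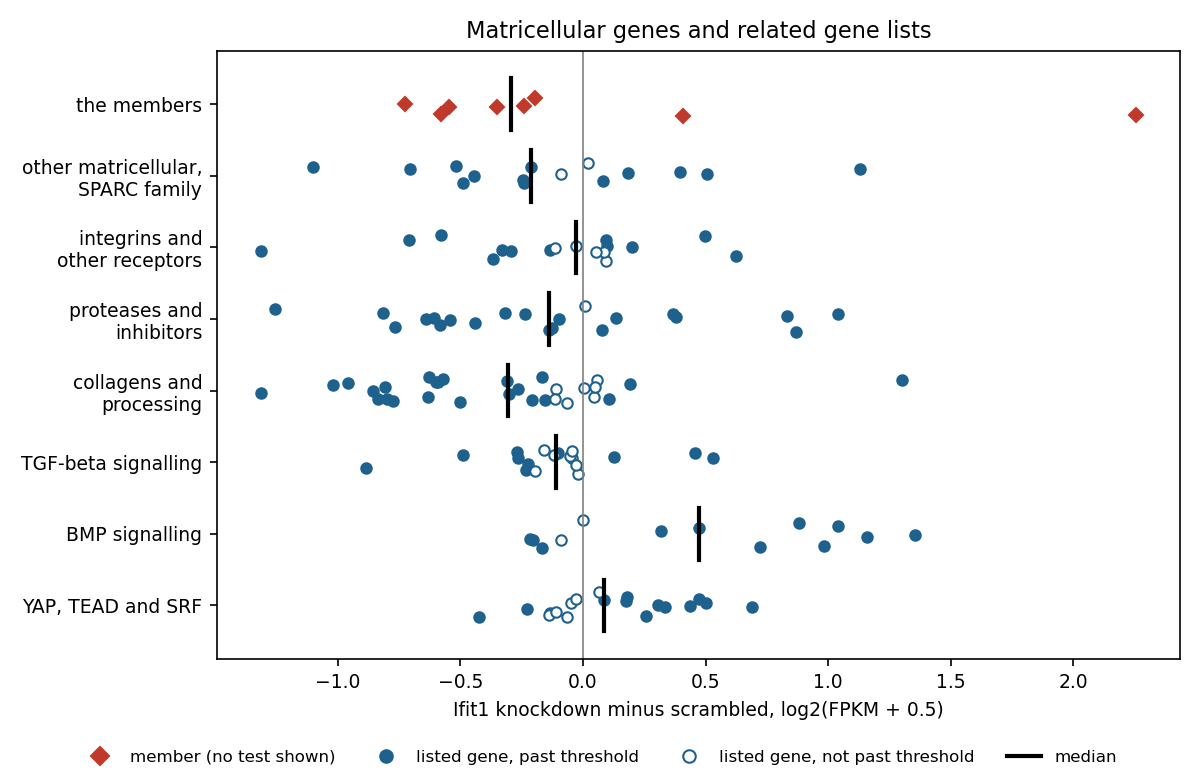
Log2 difference, knockdown minus scrambled, for the 8 matricellular genes (red diamonds, without a test) and for the tested genes of 7 related lists (circles, filled where the limma adjusted p was below 0.05). Black bars are medians, −0.29 for the 8 genes, −0.31 for collagens and 0.47 for BMP signalling.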

How the data were processed

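Poly(A) RNA was captured on beads, heat-fragmented and ligated to adapters, per the labels' protocols. The authors deposited 1 table of FPKM with a column per library. The sources used here give no aligner, counting tool or annotation, and the submitters' processing notes name GRCm38, mm10 and GRCm39 without a role. The table holds no coordinates, so positions are those of GENCODE M21 on GRCm38, matched by symbol.

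For all 19877 genes the FPKM values of the 6 libraries could be written as whole numbers of fragments (within 0.002). Fragment counts, depth and counting error come from these. For genes above 0 in few libraries the fit is no check. No 2 libraries of a group agreed within sampling noise (chi-square per gene 3.16 to 12.5, where noise gives 1).

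The 10311 genes that reached 1 FPKM in 3 or more libraries were tested on log2(FPKM + 0.5) with limma 3.58.1 in R 4.3.3 (trend, two-sided, Benjamini-Hochberg over all tested genes, threshold 0.05). Fold changes of low genes are understated on this scale. Libraries of 1 number share a batch per the labels, which pairs them. Deviations from group means correlated at 0.09, 0.01 and 0.19 within batches 1, 2 and 3. The labels do not say whether libraries came from separate cultures, so p-values reflect only how much these samples vary, and that variation may be technical.

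The members and lists were chosen with earlier results of these data known. Named were all members, Ifit1, up to 4 called genes of smallest p per list, relatives by name (Ccn, Thbs, Spock and the osteopontin family), the 5 genes most like Smoc2 and Sparc, and listed neighbours within 500 kb of Smoc2 and Spp1. A gene that this rule names is not reported here. Alternatives were other pseudocounts, filters and scalings, no trend, limma-voom, the batch as a block and leaving out each library.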

Additional observations from a re-analysis of the deposited data

How the results depend on the processing

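The log2 differences of the 8 tested matricellular genes kept their sign under every alternative run. Smoc2 ran from 2.02 with a pseudocount of 1 to 2.58 with limma-voom on recovered fragments, Thbs1 from 0.34 to 0.47, Postn from −0.80 to −0.65, Thbs2 from −0.63 to −0.51, Spp1 from −0.69 to −0.47, Fn1 from −0.45 to −0.28, Sparc from −0.29 to −0.17 and Tnc from −0.26 to −0.10. With the replicate block (batch), 2055 genes were called higher and 3174 lower, and the block ended no call of a gene named here.

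With a mean FPKM of at least 5, fewer genes were tested. Under that filter 2042 genes were called lower in place of 3209, and 1850 higher in place of 2046. Why the lower calls changed more was not tested. Of the receptor genes, 4 were called lower in place of 7. The 5 receptor genes called higher became 2 without the filter, 3 after rescaling to TPM, 2 under quantile normalization and 3 without the limma trend, and 2 to 5 when 1 library was left out. Collagen genes called higher numbered 2 to 5 when 1 library was left out. YAP, TEAD and SRF genes called lower numbered 6 after rescaling to TPM. The sign of the log2 difference of Ccn3, which was not called, turned after rescaling to TPM (−0.019), without knockdown library 1 (−0.014) and without scrambled library 2 (−0.026), and its value ran from −0.026 to 0.072 when 1 library was left out. The cause was not tested. Depth limits Smoc1 and Sparcl1, which had at most 21 fragments in a library.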

Other observations

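The deposited annotation places some of these genes in the KEGG pathway of receptor interaction with the extracellular matrix. Of its 73 other listed genes, 36 were tested, of which 6 rose and 22 fell (limma, median log2 fold change −0.21). Over all tested genes 19.8% rose and 31.1% fell. This list, taken up after the values were seen, shares collagens and integrins with the lists above. In the deposited gene ontology terms, all 10 genes are extracellular. Heparin binding is given for 6 of them (Smoc1, Smoc2, Thbs1, Thbs2, Postn and Fn1), against 134 genes in the whole table. Calcium ion binding is given for 6 (Smoc1, Smoc2, Sparc, Sparcl1, Thbs1 and Thbs2). The calcium-binding genes thus hold Smoc2 and Thbs1, which were higher, beside Sparc and Thbs2, which were lower.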
